A study of Mus musculus with 7 samples.

Results

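Genes of pulmonary surfactant and of the lamellar body were described in mouse lung and in lung tumors that overexpress EZH2. The 10 genes, Sftpa1, Sftpb, Sftpc, Sftpd, Abca3, Lamp3, Napsa, Slc34a2, Etv5 and Muc1, were taken by gene symbol from the 22447 genes of the deposited tables, and all 10 were present. RNA sequencing covered 7 libraries: 3 of lung tumor with the genotype EZH2 overexpression (OE tumors), 2 of normal lung of the same genotype (OE normal lung), and 2 of lung of wild-type mice (WT lung). EZH2 is the methyltransferase of Polycomb repressive complex 2, which silences genes through histone H3 methylation. The promoter and cell type that drive EZH2, the age and strain of the mice, and any treatment are not stated in the labels. Lung tissue is named as the source, while the growth text also describes culture of minced nodules, so it is not known whether the tumor RNA came from tissue or from culture. Nothing says that the replicates are different animals. A p-value here therefore measures the spread among these libraries only, and that spread may be technical.

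Surfactant is a film of phospholipid and protein that lowers surface tension in the alveolus. Alveolar type 2 cells make it, store it in lamellar bodies, which are lysosome-related organelles, and secrete and recycle it. Its hydrophobic proteins, encoded by Sftpb and Sftpc, organize the lipid film, and its collectins, encoded by Sftpa1 and Sftpd, bind microbes and take part in surfactant turnover.

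Of the 10 genes, 7 matched an entry of the RefSeq promoter table used here, with 8 windows because Etv5 has a pair of starts, and Sftpc, Sftpd and Napsa did not. The 250 bases before the start are printed for 4 genes that were higher in tumors and that carry a match to a motif of a transcription factor measured below. Letters are 5′ to 3′ on the gene's strand, in build GRCm38.p6, and capitals mark motif matches. Sftpa1 lies at chr14:41131538-41131787 on the plus strand, Sftpb at chr6:72304360-72304609 on the plus strand, Lamp3 at chr16:19706366-19706615 on the minus strand and Slc34a2 at chr5:53049103-53049352 on the plus strand.
Sftpa1: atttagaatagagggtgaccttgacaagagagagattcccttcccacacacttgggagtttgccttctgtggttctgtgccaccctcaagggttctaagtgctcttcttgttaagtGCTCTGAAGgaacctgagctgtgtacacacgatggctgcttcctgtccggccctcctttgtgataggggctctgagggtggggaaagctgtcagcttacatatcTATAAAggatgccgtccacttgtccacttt
Sftpb: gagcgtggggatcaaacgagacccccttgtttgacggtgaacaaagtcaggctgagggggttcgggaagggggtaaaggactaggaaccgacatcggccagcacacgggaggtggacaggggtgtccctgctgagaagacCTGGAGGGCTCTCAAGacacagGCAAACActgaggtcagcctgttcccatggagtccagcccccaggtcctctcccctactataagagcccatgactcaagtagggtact
Lamp3: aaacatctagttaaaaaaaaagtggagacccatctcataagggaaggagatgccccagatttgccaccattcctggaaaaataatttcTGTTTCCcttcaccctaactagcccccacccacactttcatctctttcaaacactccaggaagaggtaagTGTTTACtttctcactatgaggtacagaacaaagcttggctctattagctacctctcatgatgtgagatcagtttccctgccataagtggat
Slc34a2: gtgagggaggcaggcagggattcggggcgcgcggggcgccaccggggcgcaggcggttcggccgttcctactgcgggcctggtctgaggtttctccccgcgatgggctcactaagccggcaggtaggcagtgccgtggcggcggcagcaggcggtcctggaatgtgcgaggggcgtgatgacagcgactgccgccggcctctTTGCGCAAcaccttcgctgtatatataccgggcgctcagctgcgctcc

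The motifs searched were GCNCTNNAG and CACTTGA (NKX2-1), TGTTTNC (forkhead factors), CCGGAAG (ETS factors) and TTGCNNAA (C/EBP factors) on both strands, and TATAAA on the gene's strand. Sftpa1 had GCNCTNNAG 134 to 126 bases and TATAAA 30 to 25 bases before the start. Sftpb had 2 matches to GCNCTNNAG, at 110 to 102 bases on the opposite strand and at 103 to 95 bases on its own strand, which overlap, and TGTTTNC at 88 to 82 bases on the opposite strand. Lamp3 had TGTTTNC at 162 to 156 and at 92 to 86 bases, and Slc34a2 had TTGCNNAA at 48 to 41 bases, a match that reads the same on both strands. Among the windows not printed, Muc1 had TATAAA at 31 to 26 bases, 1 of the Etv5 windows had TGTTTNC at 183 to 177 bases, and Abca3 had no match. GCNCTNNAG was in 2 of the 8 windows against 14.2% of all 32851 RefSeq windows of this length, TGTTTNC in 3 against 17.8%, TATAAA in 2 against 7.59% and TTGCNNAA in 1 against 9.56%. CACTTGA and CCGGAAG, in 2.68% and 6.91% of all windows, were in none of the 8. A match is a run of letters and was not tested for binding.

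Values are FPKM (fragments per kilobase of transcript, scaled to the fragments mapped), a level per length, so levels of different genes can be compared within a library. Totals were 405166 to 503550 FPKM per library, 12028 to 12625 genes reached 1 FPKM in the tumors and 13203 to 13567 in normal lungs, and relative depth, read from the spacing of low values, was 1.20 to 1.87 in the other libraries with tumor 1 as 1. The number of reads is not known. Tumor 1 stood apart from tumors 2 and 3 (Pearson r across genes, which are not replicates, was 0.897 and 0.894, against 0.970 between tumors 2 and 3). It was male by Xist and Eif2s3y, as were OE normal lung 1 and both WT lungs, and its Ezh2 level was 8.48 FPKM against 23.5 and 22.6 for tumors 2 and 3, 10.2 and 11.5 FPKM in OE normal lung and 3.72 and 2.58 FPKM in WT lung. Tumor 1 thus lay below both OE normal lungs in Ezh2 RNA. Whether this level includes RNA of the overexpressed EZH2 was not tested. The summed level of 5 fibroblast markers was 335 FPKM in tumor 1 against 60.5 and 77.5 in tumors 2 and 3, and that of 5 macrophage markers was 140 against 52.7 and 66.5 FPKM. Their part in any difference between the tumors was not tested.

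Sftpa1, Sftpb and Sftpd were abundant in every library, and most of the surfactant and lamellar body genes were higher in tumors. Of 9 genes tested, 7 (Sftpa1, Sftpb, Sftpd, Abca3, Lamp3, Slc34a2 and Muc1) were higher in tumors than in OE normal lung and 0 were lower, where 38.1% of all 14057 genes tested passed, 13.1% higher and 24.9% lower (limma on log2(FPKM + 1), adjusted p under 0.05). Against WT lung the same 7 were higher and 0 lower, where 38.2% of genes passed, 15.0% higher and 23.2% lower. The median log2 difference of the 9 genes was 1.70 against OE normal lung and 1.62 against WT lung, and that of all genes was -0.11 and -0.06. For these 7 genes each tumor lay above each of the 4 normal lungs, as it did for 21.9% of all genes tested. The male tumor 1 was thus above the 3 male normal lungs and the female tumors 2 and 3 above the female OE normal lung 2. Napsa and Etv5 passed in neither comparison, and Sftpc was given no test because it is listed at 0 in tumors 2 and 3. Both comparisons use the same tumor libraries, so they are not separate evidence.

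**Figure D1:**
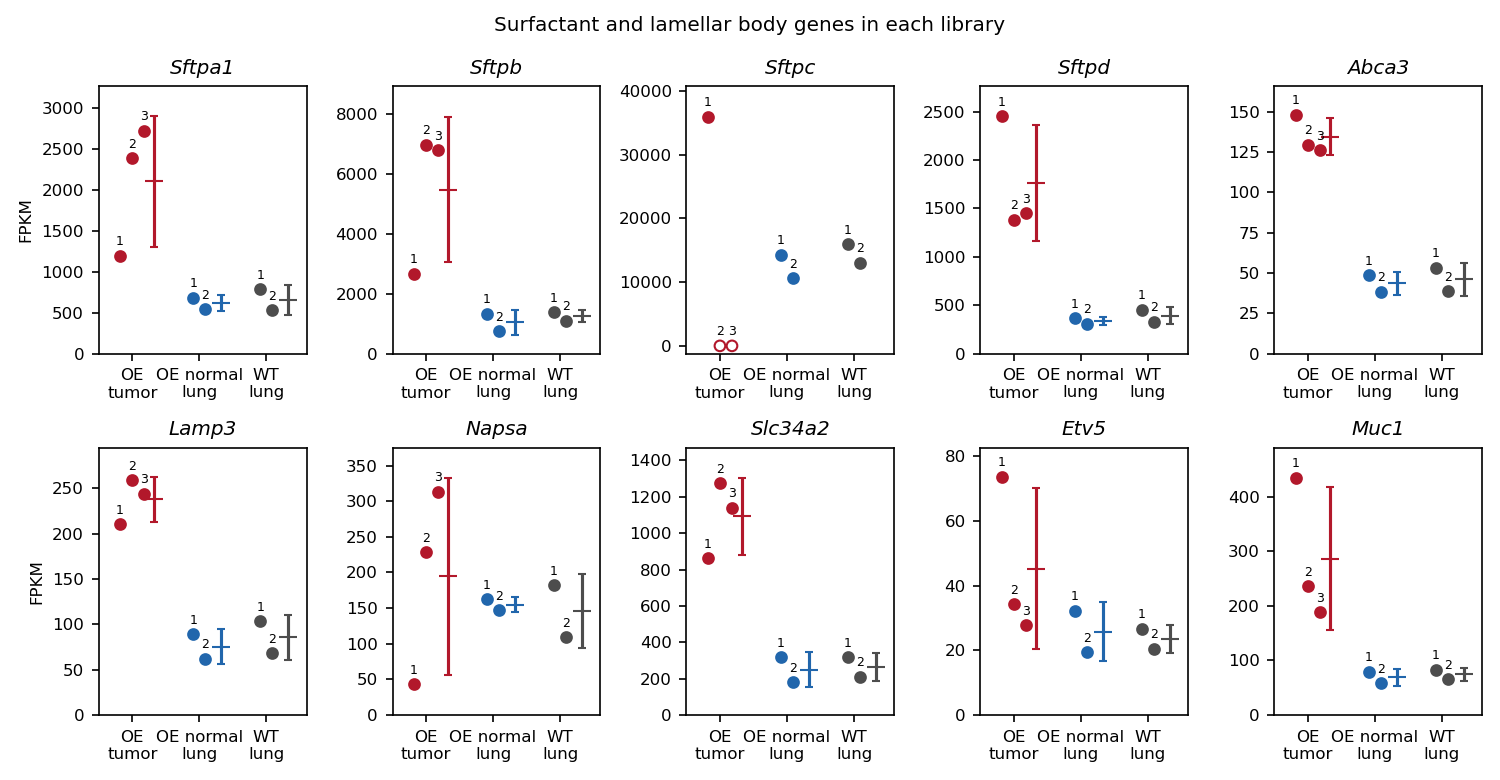
FPKM of the 10 genes in each library, 1 panel per gene on its own linear axis; points are libraries with their replicate numbers, open points are listed at 0, and the bar beside each group is the mean with 1 SD. The tumors lie above all 4 normal lungs in 7 panels, tumor 1 is the lowest library for Napsa at 43.2 FPKM, and Sftpc is drawn without means.

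Bulk RNA cannot tell more cells of a type from more RNA per cell. General epithelial markers moved with the surfactant genes: of 8 tested, 7 rose in tumors in each comparison, with a median log2 difference of 1.30 against OE normal lung and 0.93 against WT lung. Their part in the differences of the surfactant genes was not tested beyond the scaling described next. Their summed level was 981 to 1089 FPKM in tumors, 347 to 402 FPKM in OE normal lung and 490 to 497 FPKM in WT lung, so the groups did not overlap. Epcam, an adhesion protein of epithelial cells, had the highest log2 difference of the 8, 2.39 against OE normal lung (SE 0.15, limma adjusted p = 2.98e-04). Markers of other cells in lung did not all move alike. Of these, 6 of 6 endothelial genes and 5 of 5 ciliated cell genes fell in both comparisons, with median log2 differences of -2.96 and -3.95 against OE normal lung. Of 5 lymphocyte genes 5 fell against OE normal lung and 4 against WT lung, and 3 of 4 club cell genes and 2 of 5 fibroblast genes fell in both. Of 5 macrophage genes 0 fell in either comparison, with medians of -0.10 against OE normal lung and 0.63 against WT lung, where 1 rose.

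With the values of each library scaled so that the mean log2 level of the 8 epithelial markers was equal, 1 of the 9 surfactant genes was higher in tumors than in OE normal lung. This was Sftpd (log2 difference 0.98, SE 0.26, limma adjusted p = 0.0103), where 1.34% of all genes were higher. Against WT lung 4 were higher where 2.09% of all genes were. These were Sftpd (1.12), Slc34a2 (1.04), Muc1 (0.84) and Abca3 (0.53), with limma adjusted p = 0.00711, 0.0272, 0.0341 and 0.0228. After this scaling Etv5 and Napsa had negative differences, of -0.66 and -1.44 against OE normal lung, and neither passed the test (limma adjusted p = 0.116 and 0.154). The median of all genes in that comparison was -1.47. The log2 level of Sftpd over the epithelial mean was 4.06 to 4.68 in the 3 tumors and 2.97 to 3.41 in the 4 normal lungs, so that these did not overlap. For Abca3 the same measure was 0.64 to 0.68 in tumors and -0.08 to 0.48 in normal lungs.

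**Figure D2:**
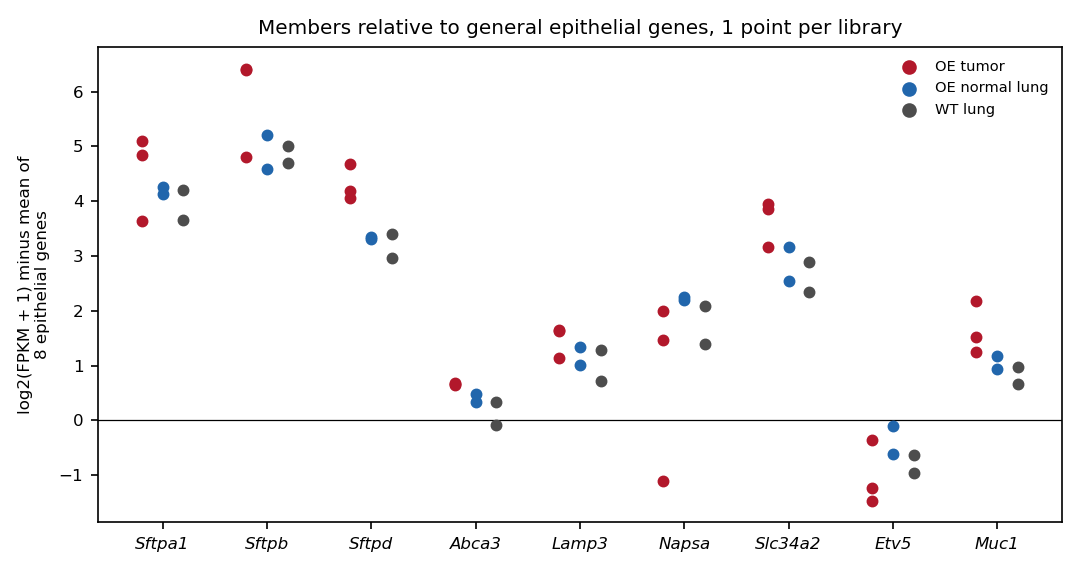
Level of 9 genes relative to 8 general epithelial genes, as log2(FPKM + 1) minus the mean log2(FPKM + 1) of those genes; each point is a library. Sftpd lies at 4.06 to 4.68 in tumors and at 2.97 to 3.41 in normal lungs, while tumors and normal lungs overlap for Sftpa1, Sftpb, Lamp3, Napsa and Etv5.

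Both collectin genes were higher in tumors. Sftpd, which encodes surfactant protein D, was at 2453, 1383 and 1449 FPKM in tumors 1, 2 and 3, at 363 and 307 FPKM in OE normal lung and at 455 and 329 FPKM in WT lung. The lowest tumor was above the highest normal lung, and tumor 1 was the highest. Its log2 difference was 2.34 against OE normal lung (SE 0.30, limma adjusted p = 0.00220) and 2.13 against WT lung (SE 0.30, limma adjusted p = 0.00313). Sftpa1, which encodes surfactant protein A and whose promoter carries GCNCTNNAG, was at 1197, 2387 and 2725 FPKM in the tumors, 683 and 543 in OE normal lung and 789 and 529 in WT lung. Here tumor 1 was the lowest tumor, still above every normal lung. The log2 difference of Sftpa1 was 1.70 against OE normal lung (SE 0.40, limma adjusted p = 0.0187) and 1.62 against WT lung (SE 0.40, limma adjusted p = 0.0226). Against OE normal lung the Sftpa1 call was lost when tumor 2, tumor 3, OE normal lung 1 or OE normal lung 2 was left out (limma adjusted p = 0.0576, 0.0525, 0.0734 and 0.118). Against WT lung it was lost without tumor 2, tumor 3, WT lung 1 or WT lung 2 (limma adjusted p = 0.067, 0.0615, 0.064 and 0.151).

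The collectins kept a nearly fixed proportion outside tumor 1. The ratio of Sftpa1 to Sftpd was 1.61 to 1.88 in tumors 2 and 3 and the 4 normal lungs, and 0.488 in tumor 1.

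Of the hydrophobic proteins, Sftpb, which is needed for lamellar body formation, was at 2664, 6954 and 6779 FPKM in the tumors, 1325 and 749 in OE normal lung and 1386 and 1096 in WT lung. All 3 tumors were above all normal lungs, with tumor 1 the lowest of them. Sftpb ranked 5 in tumor 1 and 2 in tumors 2 and 3 among 21736 genes (small RNA genes left out), against ranks of 11 to 53 in normal lungs. The ranks are not fully alike, since Sftpc, at rank 1 elsewhere, is listed at 0 in tumors 2 and 3. The log2 difference was 2.33 against OE normal lung (SE 0.50, limma adjusted p = 0.0137) and 2.02 against WT lung (SE 0.50, limma adjusted p = 0.0227). The first call was lost without OE normal lung 2 (limma adjusted p = 0.102), and the second without tumor 2, tumor 3, WT lung 1 or WT lung 2 (limma adjusted p = 0.0639, 0.0663, 0.0903 and 0.136).

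Sftpc, the surfactant protein gene most restricted to alveolar type 2 cells, was at 35944 FPKM in tumor 1 and is listed at 0 in tumors 2 and 3. It was at 14320.5 and 10578 FPKM in OE normal lung and at 15915 and 13050.0 FPKM in WT lung. In each library with a value it ranked 1 among all genes. It held 8.47% of all FPKM in tumor 1 and 2.79% to 4.19% in normal lungs, with small RNA genes left out of the total. The ratio of Sftpc to Sftpb was 13.5 in tumor 1 and 10.8 to 14.1 in the normal lungs, a narrow range over libraries whose Sftpb levels spanned 749 to 2664 FPKM.

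The entries of 0 may be failed or withheld estimates, and the other surfactant genes were high in the same 2 tumors. Of 87 genes that reached 1000 FPKM in some library, 2 were listed at 0 in another, Sftpc and the club cell secretoglobin Scgb1a1. Scgb1a1 was at 2227, 56.3 and 1095 FPKM in the tumors and is listed at 0 in all 4 normal lungs, where the other club cell markers summed to 2292 to 3099 FPKM. No fold, mean or call is therefore given for either gene. The other 9 genes together held 1.91%, 3.14% and 3.07% of all FPKM in tumors 1, 2 and 3, against 0.556% to 0.894% in the normal lungs. The totals of tumors 2 and 3 hold no Sftpc, so their shares are not fully comparable with the rest.

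Napsa encodes napsin A, an aspartic protease that cleaves the precursor of surfactant protein B, and is widely used to mark lung adenocarcinoma. It was at 43.2, 228 and 313 FPKM in the tumors, 163 and 147 in OE normal lung and 182 and 109.6 in WT lung. Tumor 1 was the lowest of all libraries and tumors 2 and 3 were the highest, so that the groups overlapped, with the male tumor below and the female tumors above the normal lungs of their sex. The log2 difference was -0.08 against OE normal lung (95% interval -2.07 to 1.91, limma adjusted p = 0.944) and 0.05 against WT lung (95% interval -1.94 to 2.04, limma adjusted p = 0.969). Without tumor 1 the differences were 0.79 (limma adjusted p = 0.0480) and 0.92 (limma adjusted p = 0.0301), both past the threshold. Relative to Sftpb RNA, Napsa was lower in tumors: the ratio of Sftpb to Napsa was 61.6, 30.5 and 21.6 in tumors and 5.08 to 10.0 in the normal lungs. In tumors 2 and 3 the ratio was high beside raised Sftpb, as Napsa itself was highest there. Protein was not measured.

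Abca3 and Lamp3 encode proteins of the lamellar body membrane. Abca3, the transporter that moves phospholipid into the lamellar body, was at 148, 129.7 and 126 FPKM in the tumors, 48.7 and 38.5 in OE normal lung and 53.3 and 38.7 in WT lung. The tumors lay close together and clear of the normal lungs, and the log2 difference of Abca3 had the smallest SE of the 9 genes. It was 1.61 against OE normal lung (SE 0.19, limma adjusted p = 0.00144) and 1.54 against WT lung (SE 0.19, limma adjusted p = 0.00168). Lamp3, a lysosome-associated membrane protein also known as DC-LAMP, was at 210.0, 259 and 244 FPKM in the tumors, 89.0 and 61.9 in OE normal lung and 103 and 68.2 in WT lung. No tumor overlapped a normal lung, and the spread among tumors was small. The log2 difference of Lamp3 was 1.66 against OE normal lung (SE 0.24, limma adjusted p = 0.00325) and 1.49 against WT lung (SE 0.24, limma adjusted p = 0.00495). The ratio of Abca3 to Lamp3 was 0.501 to 0.706 over all 7 libraries.

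Slc34a2, the sodium-phosphate cotransporter that takes phosphate up from the alveolar fluid, was at 861, 1276 and 1141 FPKM in the tumors, 319 and 180 in OE normal lung and 317 and 211 in WT lung. The tumors were all above the normal lungs. Its log2 difference was 2.16 against OE normal lung (SE 0.33, limma adjusted p = 0.00370) and 2.05 against WT lung (SE 0.33, limma adjusted p = 0.00462).

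Muc1, a membrane mucin of the apical surface of epithelial cells, was at 435, 236 and 188 FPKM in the tumors, 79.3 and 58.4 in OE normal lung and 82.9 and 65.5 in WT lung. Tumor 1 was highest, and all 3 tumors were above the normal lungs. The log2 difference of Muc1 was 1.96 against OE normal lung (SE 0.37, limma adjusted p = 0.00820) and 1.85 against WT lung (SE 0.37, limma adjusted p = 0.0106). Its calls were lost without OE normal lung 2 (limma adjusted p = 0.0659) and without WT lung 2 (limma adjusted p = 0.0823).

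Etv5, an ETS transcription factor downstream of FGF signaling that alveolar type 2 cells need to keep their identity, was at 73.7, 34.3 and 27.7 FPKM in the tumors, 32.2 and 19.3 in OE normal lung and 26.7 and 20.5 in WT lung. Tumor 1 stood alone, and tumor 3 lay below OE normal lung 1, while all tumors lay above both WT lungs. Within each sex the tumors lay above the normal lungs. The log2 difference was 0.70 against OE normal lung (95% interval -0.37 to 1.77, limma adjusted p = 0.25) and 0.79 against WT lung (95% interval -0.28 to 1.86, limma adjusted p = 0.2). Without tumor 1 the Etv5 differences were 0.29 and 0.38 (limma adjusted p = 0.366 and 0.25), and without OE normal lung 2 the first was 0.35 and without OE normal lung 1 it was 1.05 (limma adjusted p = 0.692 and 0.246). With sex as a covariate Etv5 passed in both comparisons (0.87 and 1.46, limma adjusted p = 0.0201 and 0.00960). Tumor 1 is the only male tumor and OE normal lung 2 the only female normal lung. An effect of sex thus cannot be told apart from other traits of these single libraries. The ratio of Etv5 to Lamp3 was 0.351 in tumor 1, 0.132 and 0.113 in tumors 2 and 3, and 0.258 to 0.361 in normal lungs.

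**Figure D3:**
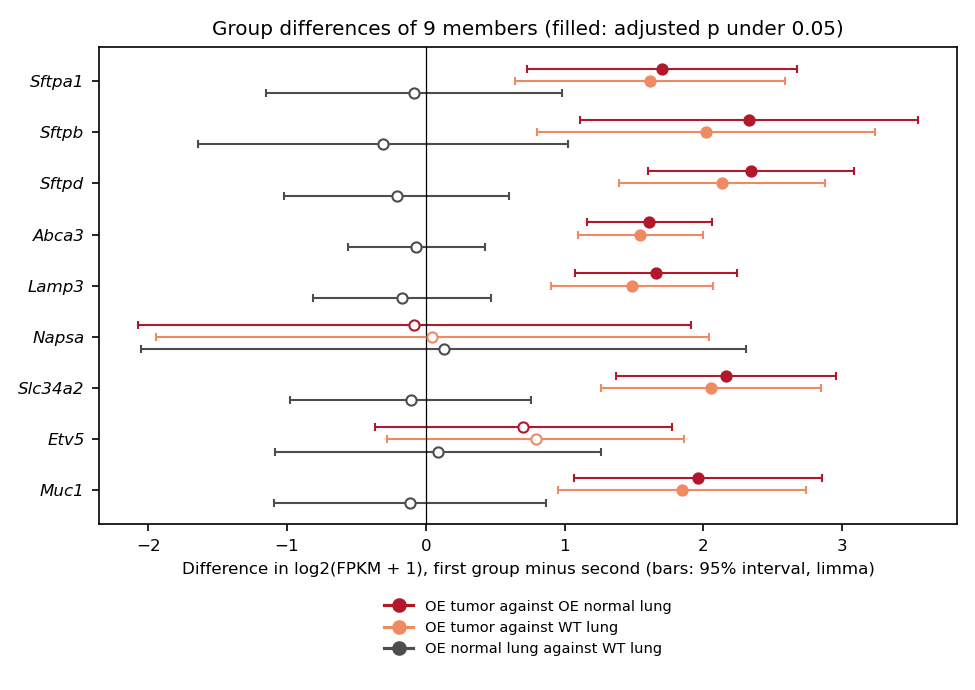
Differences in log2(FPKM + 1) of 9 genes for the 3 group comparisons, with 95% intervals from limma; filled points have an adjusted p under 0.05. Of the 9 genes, 7 are filled in both tumor comparisons, none in OE normal lung against WT lung, and the interval of Napsa is the widest.

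Between normal lung of EZH2-overexpressing mice and WT lung no difference in these genes was detected. Of the 9 genes tested 0 passed, as did 0% of the 14057 genes in limma, and the log2 differences lay between -0.31 (Sftpb) and 0.13 (Napsa). At an unadjusted p under 0.05 limma counted 1208 genes, or 8.59%, and 0 of the 9. The interval of Abca3 was -0.56 to 0.43 and that of Napsa -2.05 to 2.31, so a change of 2-fold in either direction lies outside the first and inside the second. The order of the 10 levels was the same in all 4 normal lungs, from Sftpc through Sftpb, Sftpa1, Sftpd, Slc34a2, Napsa, Lamp3, Muc1 and Abca3 to Etv5. The ranges of neighbours over the 4 normal lungs overlapped for Sftpb and Sftpa1, for Sftpd and Slc34a2, for Slc34a2 and Napsa and for Lamp3 and Muc1, and were apart for the other neighbours.

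Among the tumors, the genes divided by their level in tumor 1. Relative to the mean of tumors 2 and 3, tumor 1 had lower Napsa (a ratio of 0.160), Sftpb (0.388), Sftpa1 (0.468) and Slc34a2 (0.712). It had higher Etv5 (2.38), Muc1 (2.05) and Sftpd (1.73), with Lamp3 and Abca3 close to equal at 0.835 and 1.16. Tumors 2 and 3 differed from each other by less, with ratios of tumor 2 to tumor 3 between 0.728 (Napsa) and 1.25 (Muc1). The ratio of Muc1 to Napsa was 10.0 in tumor 1 and 0.396 to 1.03 in the other 6 libraries. Tumor 1 is a single library, so these differences have no replicate check, and its sex, its Ezh2 level and its fibroblast and macrophage markers, given above, differ from tumors 2 and 3 as well.

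**Figure D4:**
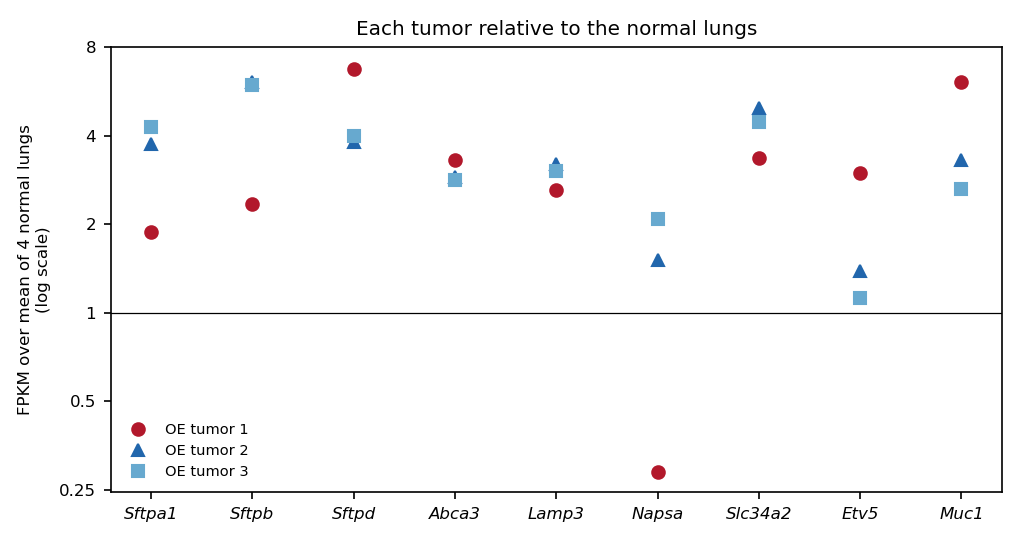
FPKM of 9 genes in each tumor divided by the mean of the 4 normal lungs, on a log axis; each symbol is a tumor. Tumor 1 lies below tumors 2 and 3 for Sftpa1, Sftpb, Napsa, Slc34a2 and Lamp3 and above them for Sftpd, Abca3, Etv5 and Muc1, from 0.287 for Napsa to 6.75 for Sftpd.

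Several transcription factors known to act on surfactant promoters were higher in tumors. Of 11 tested, 4 rose and 1 fell in both comparisons, with a median of 0.36 against OE normal lung and 0.24 against WT lung. With epithelial scaling 3 rose and 7 fell against OE normal lung (median -1.0). That scaling lowers genes in general: of all 14057 genes 189 rose and 12161 fell (median -1.47). Cebpa, a C/EBP factor of alveolar and liver differentiation, was at 340, 348 and 355 FPKM in the tumors, 42.1 and 26.2 in OE normal lung and 34.9 and 29.3 in WT lung. Nkx2-1, the homeobox factor of lung identity, was at 255, 193 and 175 FPKM in the tumors, 63.8 and 55.8 in OE normal lung and 85.0 and 89.4 in WT lung. Neither factor overlapped between tumors and normal lungs. Against OE normal lung the log2 differences were 3.35 for Cebpa (SE 0.21), 1.86 for the forkhead factor Foxa2 (SE 0.17) and 1.76 for Nkx2-1 (SE 0.18), with limma adjusted p = 2.98e-04, 6.94e-04 and 0.00101. Nr3c1, the glucocorticoid receptor that mediates surfactant maturation before birth, fell (-0.64, SE 0.13, limma adjusted p = 0.0111).

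Genes around Etv5 in FGF signaling moved in both directions. Of 11 tested, 4 rose and 4 fell against OE normal lung (median 0.76), and 2 rose and 4 fell against WT lung (median 0.21). With epithelial scaling 2 rose and 6 fell in each (medians -0.60 and -0.80). Among all 14057 genes this scaling gave 189 rises and 12161 falls against OE normal lung, and 294 and 10526 against WT lung. Fgfr2, the receptor through which FGF7 and FGF10 act on lung epithelium, was at 123, 177 and 161 FPKM in the tumors, 31.4 and 17.7 in OE normal lung and 24.6 and 19.7 in WT lung. Etv4, the close relative of Etv5, was at 27.6, 16.8 and 13.5 FPKM in the tumors and at 0.170 to 0.437 FPKM in normal lungs. In both genes the tumors lay above all normal lungs, and in Etv5 they overlapped OE normal lung. Against OE normal lung the log2 differences were 3.91 for Etv4 (SE 0.30), 2.63 for Fgfr2 (SE 0.28), -1.88 for the receptor Fgfr3 (SE 0.16) and -2.24 for the mesenchymal ligand Fgf7 (SE 0.23), with limma adjusted p = 4.07e-04, 0.00108, 5.21e-04 and 9.14e-04.

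Lipid synthesis genes were counted next, since surfactant is mostly phospholipid. Of 21 tested, 10 rose and 4 fell against OE normal lung (median 0.68), and 11 rose and 4 fell against WT lung (median 0.66). The count against OE normal lung was 5 and 6 after rescaling to TPM, and 1 and 12 with epithelial scaling (median -0.68). Over all 14057 genes these counts were 1085 and 4883, and 189 and 12161 (median -1.47 with epithelial scaling). Lpcat1, which remodels phosphatidylcholine to the dipalmitoyl form, was at 350.3, 327 and 240.4 FPKM in the tumors, 85.5 and 44.1 in OE normal lung and 64.2 and 45.7 in WT lung. Every tumor lay above every normal lung. Against OE normal lung the log2 differences were 2.28 for Lpcat1 (SE 0.33), 1.90 for the fatty acid activating enzyme Acsl4 (SE 0.27), 1.44 for the choline kinase Chka (SE 0.13) and -2.45 for the glycerol-phosphate acyltransferase Gpam (SE 0.31). Their limma adjusted p were 0.00312, 0.00289, 6.28e-04 and 0.00199. The genes that fell beside Gpam were Cds1, Lpin1 and Pcyt1b, each an enzyme of phospholipid synthesis.

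Genes that process, secrete and recycle surfactant rose in 7 and fell in 3 of 18 cases against OE normal lung (median 0.25), and rose in 8 and fell in 4 against WT lung (median 0.25). Against OE normal lung they rose in 5 and fell in 6 after rescaling to TPM, and in 1 and 14 with epithelial scaling (median -1.11). Of all 14057 genes 1085 rose and 4883 fell after rescaling to TPM, and 189 and 12161 with epithelial scaling (median -1.47). Ctsh encodes cathepsin H, which cleaves the precursors of surfactant proteins B and C. It was at 1252, 1092 and 1079.9 FPKM in the tumors, 133 and 119 in OE normal lung and 192 and 128 in WT lung. For Ctsh every tumor lay above every normal lung. Its log2 difference against OE normal lung was 3.17 (SE 0.20, limma adjusted p = 3.01e-04), and tumor 1, which had the lowest Napsa, had the highest Ctsh. The ubiquitin ligase Nedd4, which sorts the surfactant protein C precursor, rose by 0.70 (SE 0.14) and had the opposite sign with epithelial scaling (-0.66). Gpr116, a receptor that limits surfactant secretion, and the ion channel gene Tmem63a fell, by 1.72 and 0.84 on the log2 scale, with limma adjusted p = 0.00716 and 0.0036. The cells that gave these transcripts were not identified, and a part of cell composition in either fall was not tested.

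Surfactant clearance depends on GM-CSF and on alveolar macrophages. Of 10 such genes, 2 rose and 1 fell against OE normal lung (median 0.43), and 5 rose and 1 fell against WT lung (median 0.95). With epithelial scaling the medians were -0.93 and -0.06, where those of all genes were -1.47 and -1.08. The log2 differences against OE normal lung were 1.76 for Csf2 (SE 0.22), which encodes GM-CSF, 1.42 for the nuclear receptor Pparg (SE 0.38) and -2.35 for the carbonic anhydrase Car4 (SE 0.50), with limma adjusted p = 0.00203, 0.0293 and 0.0128. Car4 was at 86.5 to 164 FPKM in normal lungs, where the macrophage marker Marco was at 3.13 to 7.17 FPKM. The cells that gave the Car4 RNA were not identified, and 6 of 6 endothelial genes fell as well. The macrophage markers themselves passed in 0 of 5 cases against OE normal lung and in 1 of 5, Cd68, against WT lung.

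Relatives of the 10 genes by protein family moved in both directions. The 18 tested were collectins, ABCA transporters, LAMP proteins, aspartic proteases, phosphate transporters and mucins. Of these, 3 rose and 7 fell against OE normal lung (median -0.15), and 6 rose and 6 fell against WT lung (median 0.16). With epithelial scaling their medians were -1.51 and -0.85, where those of all genes were -1.47 and -1.08. Abca8a and Abca7, relatives of Abca3, had log2 differences of -3.53 (SE 0.24) and -1.05 (SE 0.14) against OE normal lung. The mucin gene Muc5b had -2.30 (SE 0.17) and the phosphate transporter gene Slc20a1 -1.19 (SE 0.13), and all 4 passed in both comparisons.

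Other alveolar type 2 markers were split as well. Of 9 tested, 3 rose (Chi3l1, Fabp5 and Lpcat1) and 2 fell (Hc and Lyz1) against OE normal lung, with a median of 0.97, and 3 rose and 1 fell against WT lung (median 0.93). With epithelial scaling the medians were -0.39 and -0.08, where those of all genes were -1.47 and -1.08. Chi3l1, a chitinase-like protein, was at 1124, 1003 and 855 FPKM in the tumors and 196 to 299 FPKM in normal lungs. Lyz2, a lysozyme that macrophages also express, was at 2400, 577 and 728 FPKM in the tumors and 2312 to 4003 FPKM in normal lungs, and did not pass (limma adjusted p = 0.0764 against OE normal lung). Of 9 alveolar type 1 markers, 6 fell in each comparison, with medians of -2.25 and -2.66. The water channel gene Aqp5 rose against OE normal lung (0.93, SE 0.23, limma adjusted p = 0.022) and did not pass against WT lung (0.25, limma adjusted p = 0.424).

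**Figure D5:**
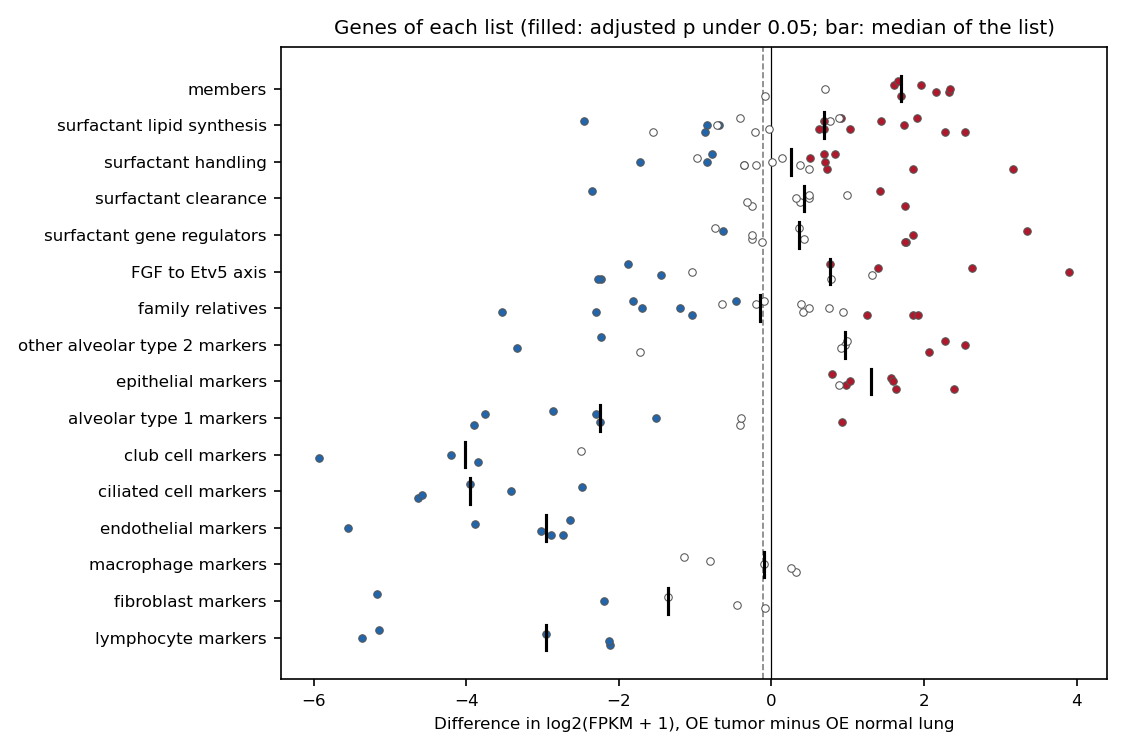
Difference in log2(FPKM + 1) between OE tumors and OE normal lung for each gene of the 10 described (members) and of 15 other gene lists; each point is a gene, filled where the limma adjusted p is under 0.05, the bar is the list's median and the dashed line the median of all genes. The medians are 1.70 for the surfactant and lamellar body genes, 1.30 for the epithelial markers and -2.96 for the endothelial markers.

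The genes whose profile over the 7 libraries was most like the mean standardized profile of the 9 genes, among 4633 candidates, were Met (Pearson r = 0.996), Dram1 (0.994), Lrrk2 (0.991), Fgfr2 (0.991), Yipf3 (0.989), Npc2 (0.989), Pcbp1 (0.988) and Gm19990 (0.988). These values describe 7 libraries that fall into tumors and normal lungs, and carry no test. Met, the receptor of hepatocyte growth factor, was at 21.1, 27.0 and 24.2 FPKM in the tumors and 6.48 to 9.28 FPKM in normal lungs. Npc2, a lysosomal cholesterol-binding protein, was at 529.9, 622 and 586 FPKM in the tumors and 150.4 to 206 FPKM in normal lungs. The kinase gene Lrrk2 was at 22.8, 24.8 and 24.5 FPKM in the tumors and 10.04 to 14.8 FPKM in normal lungs, and Dram1, a lysosomal membrane protein, was at 315 to 378 FPKM and 53.2 to 88.4 FPKM.

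Two-sided exact permutation tests of single genes could not go below p = 0.1 for 3 against 2 libraries or 0.333 for 2 against 2, so no gene could pass 0.05 by that test. These exact tests gave p = 0.1 for Abca3, Lamp3, Sftpd, Slc34a2 and Muc1 in both tumor comparisons and p = 0.2 for Sftpa1 in both. For Sftpb the exact test gave p = 0.1 against OE normal lung and 0.2 against WT lung, and for Etv5 0.4 and 0.2. Napsa had the highest p in both.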

How the data were processed

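RNA sequencing of 7 mouse lung libraries was analyzed. The authors deposited 1 table of FPKM per library, and the submitters' processing notes name TopHat, TopHat2, Cufflinks 2.0.0 and build mm9; the annotation, the normalization option and strandedness are unknown here. Each deposited table had 22474 rows, of which 27 with a date in place of a symbol were left out. Values were tested as log2(FPKM + 1) for 14057 genes that reached 1 FPKM in 2 or more libraries, using limma 3.58.1 under R 4.3.3 (eBayes, trend on, 2-sided, Benjamini-Hochberg over all genes tested, threshold 0.05) and all 7 libraries in 3 groups sharing 1 spread. The pseudocount of 1 understates differences of low genes. The procedure was tested on simulated data. Of simulated 2-fold changes it recovered 48.3% against OE normal lung, 51.7% against WT lung and 38.3% between the normal groups. Of 4-fold changes it recovered 93.0%, 93.5% and 89.6%. Many 2-fold changes were thus missed in the simulation. It changed a far smaller share of genes than the 38.1% and 38.2% called in the tumor comparisons, so its rates need not hold for those comparisons. Genes with at least 1000 FPKM in a library and 0 in another got no call. Over all genes the SE of a difference had a median of 0.19 for tumors against either normal group and 0.21 between the normal groups. For the 9 surfactant genes tested the medians were larger, at 0.37 and 0.40.

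The 10 genes and the 15 other lists were chosen with earlier results of these data known. Named genes outside the 10 were, per list other than cell markers, up to 4 called genes with the smallest adjusted p against OE normal lung and a group mean of at least 5 FPKM, and the 8 genes most like the mean profile of the 9 genes other than Sftpc at a group mean of at least 20 FPKM; cell markers, and the other names in counts of calls, were named after their values were seen. Promoters came from RefSeq (GRCm38.p6). Alternatives were other pseudocounts, filters and scalings, no trend, fewer groups, a replicate block, sex as a covariate and omission of each library. Figures used Python 3.11.15 and matplotlib 3.10.9.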

Additional observations from a re-analysis of the deposited data

How the results depend on the processing

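The 7 genes higher in each tumor comparison were still 7 with median-of-ratios scaling, rescaling to TPM, a filter at 5 FPKM, no trend, only the groups compared or a pseudocount of 0.1, and 0 were lower under any alternative. The number higher moved to 1 against OE normal lung and 4 against WT lung with epithelial scaling. It was 5 and 5 without a filter, 7 and 5 with quantile normalization, and 8 and 6 with sex as a covariate; Sftpa1 and Sftpb were lost without a filter (limma adjusted p = 0.0742 and 0.134 against OE normal lung). Leaving out 1 library gave 4 to 8 in both comparisons, 4 without OE normal lung 2 or WT lung 2 and 8 without tumor 1, where a lone library left in a group is assumed to vary like the others. Between OE normal and WT lung 0 of the 9 passed under every alternative. Of 162 alternative values of the 9 genes, 16 lost their call, 2 gained one and 1 changed sign and gained one against OE normal lung, and 20, 3 and 0 did so against WT lung.

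Changes of sign with a call on either side were Napsa against OE normal lung without tumor 1 (0.79; -0.63 to 0.79 over the libraries left out) and, with epithelial scaling, Nedd4 (-0.66), Lrrk2 (-0.29), Yipf3 (-0.79) and Pcbp1 (-0.77) against OE normal lung and Chka (-0.30), Nedd4 (-0.31), Lrrk2 (-0.093), Yipf3 (-0.47) and Pcbp1 (-0.46) against WT lung. This scaling moves the median of all genes from -0.11 to -1.47 and from -0.06 to -1.08.

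Replicate numbers are shared between groups, and the labels state no pairing. Correlations of deviations from the group mean between same-numbered libraries were -0.03 to 0.03. These cannot exclude pairing, since in a group of 2 libraries the deviations mirror each other. With a replicate block 6 of the 9 genes were higher in each comparison. Etv5 passed (0.98 and 1.07), and Sftpa1 and Sftpb did not. Over all genes the calls were 814 higher and 2316 lower against OE normal lung and 905 and 2094 against WT lung. No other library shares the number of tumor 3, so the block absorbs it and these differences rest on tumors 1 and 2. The medians over all genes, -0.07 and -0.03, equal those of the fit without tumor 3. In Etv5 tumor 1 was at 73.7 FPKM and tumor 2 at 34.3 FPKM.

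Over all genes the share of calls that were higher in tumors than in OE normal lung was 34.5%, with 1844 higher and 3506 lower. It was 44.6% with median-of-ratios scaling, 18.2% after rescaling to TPM, 56.0% with quantile normalization and 1.53% with epithelial scaling, and medians were 0.05, -0.33, 0.13 and -1.47. Without tumor 1 the calls were 3755 higher and 5865 lower, and leaving out any other library gave fewer, from 730 higher and 2266 lower without OE normal lung 2 to 1216 and 2949 without either WT lung. Against WT lung, where 2115 were higher and 3256 lower, the counts were 3991 and 5447 without tumor 1 and lowest, at 598 and 1847, without WT lung 2. The causes were not tested. Depth is known only in relative terms, so no counting error can be given for any level.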
